A study of Mus musculus with 17 samples.

Results

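The cytosolic sulfotransferases are the liver enzymes that attach sulfate to steroids, bile acids, thyroid hormones, phenols and drugs, and 10 of their messages are described here in livers of miR-29 transgenic mice and of wild-type mice. The members are Sult1a1, Sult1b1, Sult1c2, Sult1d1, Sult1e1, Sult2a1, Sult2a2, Sult2a5, Sult3a1 and Sult5a1, each found once by gene name among the 48440 genes of the deposited table, which holds 21 sulfotransferase genes in all. They were selected on the differences between genotypes and between ages in these same normalized counts, so those differences are given as a description, without p-values. Differences between the sexes were not part of that choice and are tested. That test uses the same wild-type libraries, and the groups differ in their share of females, so it is not fully independent of the choice.

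Polyadenylated RNA was sequenced in 17 liver libraries. The transgenic group is labelled TG and is a miR-29 transgenic line aged 2 months (6 libraries, 5 male and 1 female). The wild-type mice are B6, the common inbred black laboratory strain, aged 2 years (5 libraries, 3 male and 2 female) or 2 months (6 libraries, 4 male and 2 female). The promoter that drives the transgene, the number of founder lines and the strain of the transgenic mice are not given in the sources used here. Batch A comprises 10 libraries made with an Illumina TruSeq kit at the UNC core, and batch B comprises 7 libraries made with a directional NEBNext kit at Cornell. All 5 females are in batch A and all 7 libraries of batch B are male, so in females no value comes from batch B. The labels do not state that each library is a separate animal, so the p-values measure the spread between these libraries.

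Sulfotransferases take sulfate from its activated carrier, PAPS, and pass it to a hydroxyl or amine group, which makes the product more soluble in water and usually ends the activity of a hormone. SULT1E1 is the estrogen sulfotransferase, the SULT2A enzymes act on hydroxysteroids such as dehydroepiandrosterone and on bile acids, SULT1A1 acts on small phenols, SULT1B1 on thyroid hormones, SULT1D1 on catecholamines and other small molecules in mice, and mouse SULT3A1 on amines. The rodent liver is a sexually dimorphic organ in which the pattern of growth hormone release sets many messages at a male or a female level, and several sulfotransferases are known as female-predominant. The microRNA miR-29 lowers messages whose 3′ UTR carries a match to its seed.

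The miR-29 family is shown first because the transgenic line is named after it, and which of its forms the transgene carries is not stated here. Its mature mouse 3p forms, from RefSeq (GRCm38.p6), share 1 seed, bases 2 to 8, given in capitals.
miR-29a-3p: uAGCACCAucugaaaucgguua
miR-29b-3p: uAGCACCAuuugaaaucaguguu
miR-29c-3p: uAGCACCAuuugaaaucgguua
The letters TGGTGCT, which pair with this seed, occurred in the longest annotated 3′ UTR of 1949 of 12589 genes with a usable UTR among those tested (15.5%). They occurred in none of the 10 members. Among the other sulfotransferases, Sult2a6 on chromosome 7 held 1 match, with the seed match in capitals.
Sult2a6 site: gaacaacttctTGGTGCTgtactatgaag

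The members lie on 5 chromosomes (GENCODE M21 annotation of GRCm38, counted from 1). Sult1b1, Sult1d1 and Sult1e1 are neighbours at chr5:87513339-87591594, a stretch of 78.3 kb with no other protein-coding gene. Sult2a5, Sult2a2 and Sult2a1 sit in the Sult2a cluster at chr7:13623967-14494230, 870 kb that hold 8 sulfotransferase genes and 1 other coding gene. Sult3a1 lies beside Sult3a2 on chromosome 10, Sult1a1 lies elsewhere on chromosome 7, Sult1c2 is on chromosome 17 and Sult5a1 on chromosome 8. The promoters of 3 members with large group differences are printed from RefSeq (GRCm38.p6), each 250 bases before to 50 after the start, on the strand of the gene. They are chr5:87591562-87591861 on the minus strand for Sult1e1, chr7:13623717-13624016 on the plus strand for Sult2a5 and chr10:33857472-33857771 on the plus strand for Sult3a1. Capitals mark the matches found to AGGTCA (the nuclear receptor half-site, here on the opposite strand as TGACCT) and to TATAAA (the letters of the TATA box). They also mark matches to TTCNNNGAA (the STAT motif) and to ATTGAT (a core of HNF6 and CUX2). In Sult2a5 the TATAAA match lies at -6 from the start. These are matches of letters, and whether any of them acts was not tested.
Sult1e1 promoter: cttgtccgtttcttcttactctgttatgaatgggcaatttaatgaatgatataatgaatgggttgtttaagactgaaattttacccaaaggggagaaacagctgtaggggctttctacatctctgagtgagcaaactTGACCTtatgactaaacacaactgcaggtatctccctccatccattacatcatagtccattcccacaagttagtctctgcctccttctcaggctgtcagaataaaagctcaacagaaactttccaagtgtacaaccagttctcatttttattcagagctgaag
Sult2a5 promoter: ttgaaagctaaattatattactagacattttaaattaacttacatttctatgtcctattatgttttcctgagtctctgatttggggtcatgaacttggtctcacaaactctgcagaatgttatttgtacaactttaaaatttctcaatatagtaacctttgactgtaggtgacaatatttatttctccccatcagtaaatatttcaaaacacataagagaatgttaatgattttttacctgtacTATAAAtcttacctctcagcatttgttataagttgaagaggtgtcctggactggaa
Sult3a1 promoter: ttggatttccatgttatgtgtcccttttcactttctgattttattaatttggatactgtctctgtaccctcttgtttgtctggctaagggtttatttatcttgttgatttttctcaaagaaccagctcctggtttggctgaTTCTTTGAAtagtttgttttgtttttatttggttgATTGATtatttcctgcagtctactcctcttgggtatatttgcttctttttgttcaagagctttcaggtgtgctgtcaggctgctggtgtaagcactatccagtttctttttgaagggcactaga
The 7 motifs searched on both strands were these 4 with ATCGAT (CUX2), CAAAGTCCA (HNF4) and TTGCNNCAA (C/EBP), in the 8 members with a promoter in the table. TTCNNNGAA stood in Sult3a1 alone and in 8.47% of all 27025 promoters, and ATTGAT in Sult3a1 alone and in 7.76% of all. AGGTCA stood in Sult1e1 and Sult1b1 and in 16% of all, TATAAA in Sult2a5 and Sult1d1 and in 14.2% of all. ATCGAT stood in Sult1c2 (0.881% of all), TTGCNNCAA in none of the 8 (2.12% of all), and CAAAGTCCA in none at the first start (0.477% of all), with 1 match at a second start of Sult1b1. No motif searched stood in the promoters of all 3 printed genes. With shares of 0.477% to 16% over all promoters and at most 2 of the 8 members per motif, these matches set no member apart.

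Levels of different members are compared as mean normalized count per kb of annotated exon. In transgenic livers Sult1a1 was highest at 17536 ± 3264 per kb, above Sult2a2 at 9941 ± 7444, Sult2a1 at 7940 ± 4117, Sult1e1 at 6512 ± 4014, Sult1d1 at 3784 ± 2180 and Sult3a1 at 3260 ± 7157 (SD, n = 6). Those from Sult2a2 to Sult3a1 in this order lie within each other's spread. Sult2a5 followed at 720 ± 216, Sult1b1 at 250.5 ± 56.0, Sult1c2 at 25.3 ± 13.1 and Sult5a1 at 5.44 ± 5.98 per kb. In young wild-type males the order was Sult1a1 at 6483 ± 1843, Sult1d1 at 1519 ± 355, Sult1b1 at 346 ± 80.1 and then Sult5a1 at 77.3 ± 25.0 per kb (SD, n = 4). The other 6 members lay at 71.6 per kb or less there, with Sult2a5 lowest at 1.16 ± 0.859. Sult1e1, the fourth of the 10 in transgenic livers, was the eighth in young wild-type males. The annotated Sult2a2 model is short, with 582 coding bases against 855 in Sult2a1, which raises its value per kb.

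The 10 messages together took 0.122% to 0.235% of the normalized counts of a library in the 5 transgenic males and 0.253% in the transgenic female. In old wild type they took 0.0561% to 0.0995% in the 3 males and 0.252% to 0.337% in the 2 females. In young wild type they took 0.0293% to 0.0429% in the 4 males and 0.180% to 0.211% in the 2 females. For the sum of these 10, the transgenic males thus lay above every wild-type male of either age. In the same sum, 4 of the 5 lay below the lowest wild-type female value. The highest of these 4, TG_2mon 1 at 0.1795%, was practically level with that female, WT_2mon 3 at 0.1796%. Summed over all 21 sulfotransferase genes of the table, the males overlapped. The lowest transgenic male, TG_2mon 6, was then at 0.123%, below WT_2mon 1 at 0.143% and WT_2year 3 at 0.139%. The next lowest, TG_2mon 4, was at 0.175%. Sult1a1 made 34.7% to 48.6% of the sum in transgenic libraries and 54.4% to 74.9% in young wild-type males. The SULT2A members made 4.12% to 40.0% of the sum in transgenic libraries and 0.00689% to 2.05% in young wild-type males, against 37.8% to 38.6% in young wild-type females. In bulk liver RNA, fewer cells of a type and less RNA per cell cannot be told apart.

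In wild-type livers the SULT2A members were female messages. Sult2a1 was at 35400 and 43030 normalized counts in the 2 old females and at 13420 and 15130 in the 2 young females. In wild-type males it was at 104.8, 297.5 and 11.83 in old and at 31.97, 0, 109.4 and 27.7 in young libraries. No male came near a female. Female livers exceeded male livers by 10.33 ± 1.31 on the log2 scale for Sult2a1, 9.51 ± 1.38 for Sult2a2 and 9.62 ± 0.83 for Sult2a5 (SE, limma adjusted p = 0.00351, 0.00775 and 0.000292, over 4 females and 7 males, higher in 4 of 4 females). These 3 of the 10 members passed the test, where 0.583% of the 14588 genes tested did and 0.315% did in the female direction. In batch A alone, where every wild-type female lies, the differences were 10.18, 9.40 and 9.76 and all 3 passed. With no filter on low values, only Sult2a5 of the 10 passed (limma adjusted p = 0.00957, against 0.0653 for Sult2a1 and 0.0989 for Sult2a2).

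Sult3a1 was at 2800 and 286.0 in old females and 1596 and 2002 in young females. In males it was at 128.4, 73.83 and 1.544 in old and 0, 0, 6.531 and 0 in young libraries. All 4 females thus lay above all 7 males, at a difference of 7.59 ± 1.61 that missed the threshold (SE, limma adjusted p = 0.0740). Sult1c2 was also higher in every female than in every male, by 2.43 ± 0.50 (limma adjusted p = 0.0693), and did not pass. It passed without the library WT_2year 4 (limma adjusted p = 0.00687), as did Sult3a1 (0.0444). The other 5 members differed by 0.29 to 0.85 on the log2 scale and did not pass. Of the sulfotransferases that are not members, Sult2a3 was higher in females by 7.94 ± 0.87, Sult2a4 by 7.76 ± 0.99 and Sult3a2 by 5.15 ± 0.95 (SE, limma adjusted p = 0.00202, 0.00380 and 0.0382). The call of Sult3a2 was lost in 13 of 23 alternative settings, that of Sult2a4 in 3 and that of Sult2a3 in 2. The estrogen sulfotransferase message Sult1e1 differed between the sexes by 0.81 ± 1.30, which did not pass.

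**Figure D1:**
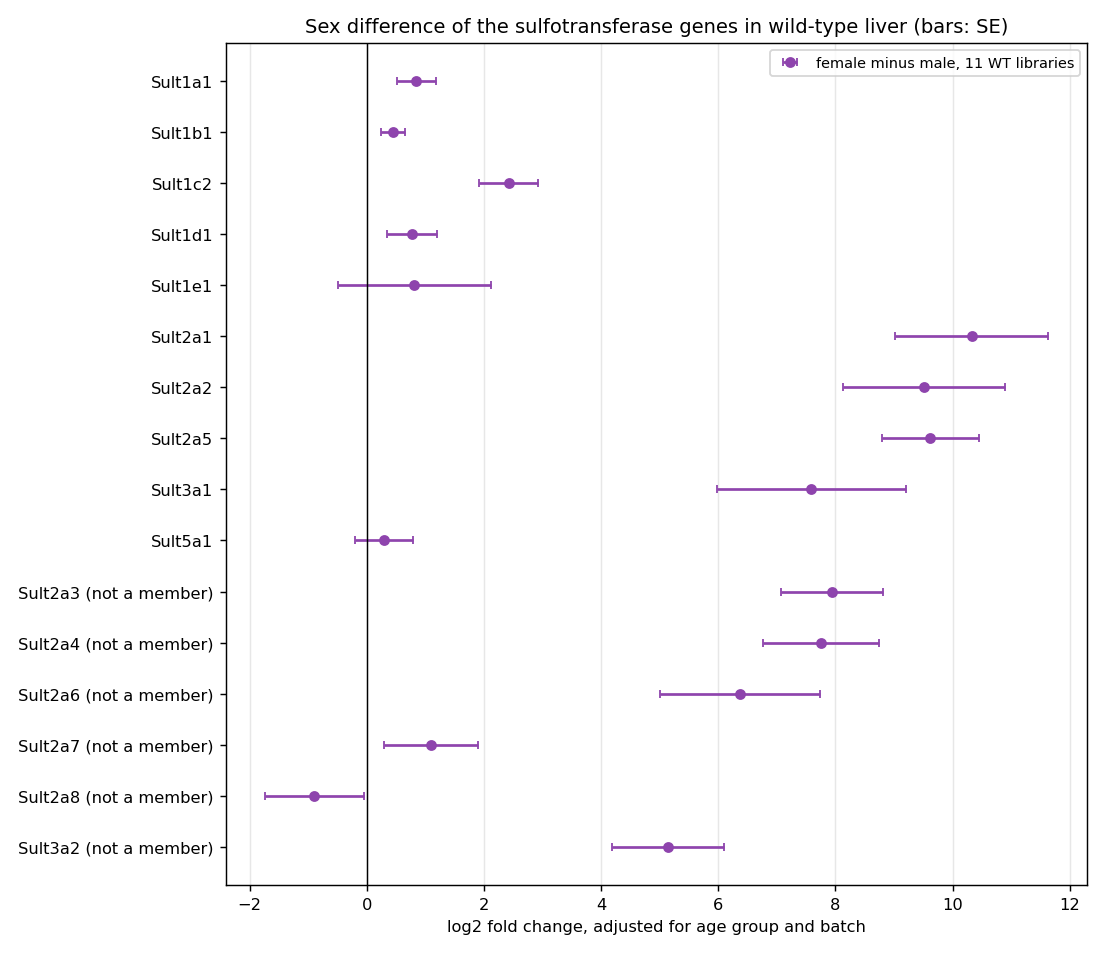
Points give the log2 fold change of female against male wild-type livers (horizontal axis) for the 16 sulfotransferase genes that entered the fit, and bars give the SE over 11 libraries. Sult2a1, Sult2a2 and Sult2a5 lie between 9.51 and 10.33, while Sult1e1 lies at 0.81 and Sult5a1 at 0.29.

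Transgenic livers carried high levels of the estrogen sulfotransferase message Sult1e1 and low levels of Sult5a1. The SULT2A members were higher in transgenic males than in young wild-type males. For none of them did the transgenic female lie above both young females. In the comparison of transgenic with young wild-type livers, 7 of the 10 members passed the threshold, 6 of them higher and 1 lower. Over all 14588 genes 6.71% passed, 2.89% higher and 3.83% lower. The median log2 fold change was 3.58 over the members and 0.00580 over all genes tested. Because this comparison was in view when the members were listed, these counts describe the list and test nothing.

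Sult1e1, which encodes the enzyme that inactivates estrogens, had the greatest log2 fold change of the 10 in the fit over both sexes and batches. In males alone Sult3a1 (8.42), Sult2a1 (8.34), Sult2a5 (8.28) and Sult2a2 (8.10) exceeded Sult1e1 (7.88), and in batch B alone Sult2a5 was highest. Sult1e1 was at 9004, 6204, 5334, 15020 and 1046 normalized counts in transgenic males and 11910 in the transgenic female. Old wild-type males had 583.3, 2821 and 25.16 and old females 517.3 and 234.9. Young wild-type males had 7.663, 12.62, 102.6 and 21.06 and young females 24.06 and 45.99. Every transgenic library lay above every young wild-type library in both sexes, with the old wild-type libraries in between and overlapping both sets. Transgenic against young wild-type livers gave a log2 fold change of 7.96 ± 0.93 (SE), or 8.94 when batch A was fitted alone and 6.52 for batch B.

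The SULT2A members, enzymes of hydroxysteroid and bile acid sulfation, were far higher in all 5 transgenic males than in young wild-type males. Sult2a1 was at 13730, 1322, 9900, 9855 and 6086 in transgenic males, against 31.97, 0, 109.4 and 27.7 in young wild-type males. The transgenic female had 7701, against 13420 and 15130 in the young wild-type females. All 5 transgenic males exceeded every wild-type male, and the transgenic female lay below both young females. Over both sexes the log2 fold change was 6.40 ± 1.37 (SE), and in males alone it was 8.34.

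Sult2a2 was at 3176, 1471, 11600, 13910 and 11430 in transgenic males, the first 2 from batch A, against 27.73, 0, 156.5 and 27.95 in young wild-type males. The transgenic female had 2612, against 8556 and 9876 in the young wild-type females. Its log2 fold change was 5.97 ± 1.38 (SE). As for Sult2a1, the males of the 2 groups did not overlap and the transgenic female lay below both young females.

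Sult2a5 varied least of the 3 between transgenic males, with 751.6, 381.3, 689.9, 738.3 and 896.8, against 2.089, 1.142, 1.634 and 0 in young wild-type males. The transgenic female had 1058, between the young wild-type females at 900.2 and 1124. Sult2a5 was thus nearly undetected in young wild-type males and stood between 381.3 and 1124 in every transgenic library and both young females. Its log2 fold change was 6.60 ± 1.09 (SE), with 4.93 within batch A and 8.89 within batch B.

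Sult2a1, Sult2a2 and Sult2a5 are near copies, so reads could be shared between them. Their coding sequences were 97.9% identical between Sult2a1 and Sult2a2, 95.7% between Sult2a2 and Sult2a5 and 94.9% between Sult2a1 and Sult2a5. Of all stretches of 31 bases, 74.5% in Sult2a2, 53.8% in Sult2a1 and 51.1% in Sult2a5 also occurred in another family member, against 13.8% in Sult3a1 and 0% in each of the other 6 members. The split of counts between the 3 is therefore uncertain, and their sum with Sult2a3, Sult2a4 and Sult2a6, which does not depend on how reads were split among these 6, was also taken. The sum was 18014, 3460, 22224, 24538 and 18434 in transgenic males and 12014 in the transgenic female. It was 64.6, 1.14, 267 and 55.7 in young wild-type males and 23627 and 26748 in young females. The sum of these 6 genes thus showed the same order, with transgenic males above every young male. It leaves out Sult2a7 and Sult2a8 of the same cluster. Sult2a8 went the other way, at a mean of 143 per kb of exon in transgenic males against 7474 in young wild-type males.

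Sult3a1, which in mice sulfates amines, was at 202.0, 20650, 373.7, 332.4 and 62.13 in transgenic males, against 0, 0, 6.531 and 0 in young wild-type males. The transgenic female had 997.7, against 1596 and 2002 in the young wild-type females. The males of the 2 groups did not overlap, and TG_2mon 2 stood far above the other transgenic libraries. In the same library the neighbouring Sult3a2, whose coding sequence is 90.9% identical, was at 2549, against 3.407 to 26.14 in the other 5. For Sult3a1 the log2 fold change was 6.16 ± 1.51 (SE).

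Sult1a1, the phenol sulfotransferase, was at 30230, 33190, 20260, 25580 and 21840 in transgenic males, against 7729, 11520, 7099 and 12740 in young wild-type males. The transgenic female had 27460, against 21270 and 24390 in the young wild-type females. The males of the 2 groups did not overlap, at a ratio of means of 2.68, while the ratio of the 1 transgenic female to the mean of the 2 young females was 1.20. Over both sexes the log2 fold change was 1.18 ± 0.25 (SE), and the batches alone gave 1.14 (A) and 1.24 (B).

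Sult5a1 was the one member past the threshold in the lower direction. It was at 75.61, 12.62, 14.25, 14.45 and 1.463 in transgenic males and 25.87 in the transgenic female. Young wild-type males had 352.8, 324.0, 479.0 and 210.2 and young females 554.0 and 456.3. All 6 transgenic libraries lay below all 6 young libraries, and the log2 fold change was -4.33 ± 0.53 (SE), with -3.76 within batch A and -5.26 within batch B.

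The remaining 3 members overlapped between transgenic and young wild-type males and did not pass the threshold. Sult1d1, the neighbour of Sult1e1, averaged 7454 ± 3198 in transgenic males (SD, n = 5) and 3735 ± 874 in young wild-type males (SD, n = 4), with a log2 fold change of 0.76 ± 0.32 (SE) over both sexes. Sult1b1, on the far side of Sult1d1, averaged 689 ± 173 in transgenic and 961 ± 223 in young wild-type males, with a log2 fold change of -0.46 ± 0.18. Sult1c2 averaged 51.3 ± 24.1 in transgenic and 114 ± 69.5 in young wild-type males, with a log2 fold change of -1.58 ± 0.51. The authors' deposited table, with its own test, placed Sult1d1 and Sult1c2 past its adjusted threshold as well, and so 9 of the 10 members. The 3 genes of the chromosome 5 stretch thus ran from -0.46 to 7.96 on the log2 scale within 78.3 kb.

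Of all genes tested, 1.11% had every transgenic library above every young wild-type library and 1.84% had every one below. Among the members these were Sult1e1 above and Sult5a1 below. Among males alone 2.85% of genes lay above and 3.44% below, and among the members 6 lay above and 1 below. The lone transgenic female lay above both young females for Sult1a1, Sult1d1 and Sult1e1, between them for Sult2a5 and below both for the other 6 members. In batch A alone 2 members passed (Sult1e1 and Sult5a1) and in batch B alone 4 (Sult2a1, Sult2a2, Sult2a5 and Sult5a1), with the same direction for every member in both batches.

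**Figure D2:**
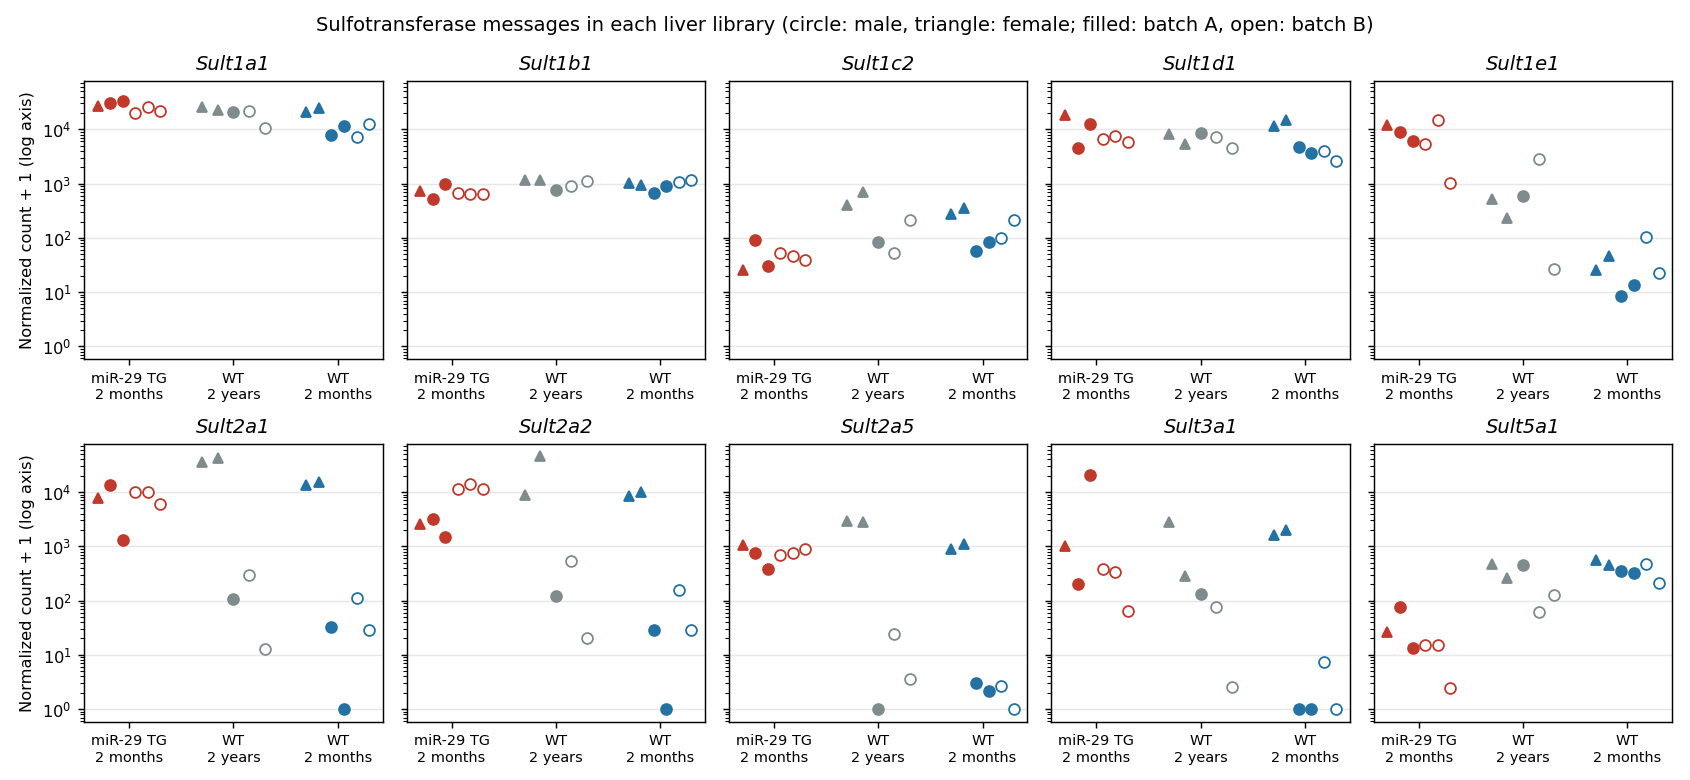
Each panel gives 1 member, with the normalized count plus 1 of every library on a log axis, for transgenic mice aged 2 months, wild-type mice aged 2 years and wild-type mice aged 2 months (circles, male; triangles, female; filled, batch A; open, batch B). Sult1e1 is high in all 6 transgenic libraries, Sult5a1 is low in all 6, and Sult2a1, Sult2a2, Sult2a5 and Sult3a1 separate females from males in wild type. Transgenic males lie above the young wild-type males for these 4 genes, and above the old ones for all of them except Sult3a1, which overlaps.

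The transgene difference in each sex was set against that in the other through an interaction term. The transgene effect in females minus that in males, fitted in the 12 libraries aged 2 months, was -9.16 ± 1.98 for Sult2a1, -9.84 ± 1.65 for Sult2a2 and -8.28 ± 0.77 for Sult2a5 (log2, SE). These 3 members passed the threshold, where 1.33% of all genes did, and 1 member passed with no filter on low values. Sult3a1 had a difference of -9.21 ± 2.69 and Sult1a1 one of -1.20 ± 0.48, and neither passed. For Sult1e1 it was 0.60 ± 1.62 and for Sult5a1 0.18 ± 1.38, and neither passed. The non-member Sult2a3 passed at -6.89 ± 1.33 (limma adjusted p = 0.0310). There is 1 transgenic female, so this difference cannot be told apart from a trait of that library, and it shares its libraries with the comparison used to list the members. No member passed for a difference of the transgene effect between batches, where 0.658% of genes did (1 member at an unadjusted p under 0.05).

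In old against young wild-type livers no member passed the threshold in the limma fit, where 0.144% of all genes did, 0.096% higher and 0.048% lower. At an unadjusted p under 0.05 were 1274 genes and 2 members, which tests nothing for members chosen on this difference. Old livers lay above young ones in 9 of the 10 members, with a median log2 fold change of 0.957, against -0.00267 over all genes tested. Sult1e1 had the greatest at 3.69 ± 0.97, then Sult3a1 at 2.504, Sult2a2 at 1.93, Sult2a1 at 1.82 and Sult2a5 at 1.32. Sult1a1 followed at 0.60, and Sult1b1, Sult1c2 and Sult1d1 lay between 0.04 and 0.27, with Sult5a1 at -0.74. The sign was not stable for 3 of these, since batch B alone gave Sult1b1 -0.17 and Sult1c2 -0.47 and batch A alone gave Sult1d1 -0.19. Sult2a1 was at 2.998 in batch A alone and at 0.14 in batch B alone. The authors' deposited table gave Sult1e1 a log2 fold change of 4.49 and placed it alone of the members past its threshold. In the limma fit Sult1e1 passed in 1 of the fits that leave out a library, the one without WT_2year 5, whose 25.16 counts lay within the young range. Without WT_2year 4, at 2821 counts, its log2 fold change was 2.82 and did not pass.

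Every member overlapped between old and young wild type, over all libraries and in males alone, where 0.35% of genes had all old libraries above and 0.26% below (3.86% and 3.48% in males). Among females, Sult2a1 was at 35400 and 43030 in the old pair and 13420 and 15130 in the young pair, and Sult2a5 at 2900 and 2774 against 900.2 and 1124. Sult1b1, Sult1c2 and Sult1e1 were also higher in both old females and Sult1d1 lower, at 8081 and 5479 against 11600 and 14910. With 2 libraries a side these are values, not tests. The age effect did not differ between the sexes past the threshold for any member, where 0.00685% of genes did. Between batches no member passed and 1.25% of genes did.

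Both differences share the 6 young wild-type libraries and so are not independent of each other. Side by side, Sult1e1 had 7.96 in transgenic and 3.69 in old livers against young ones, Sult1a1 had 1.18 and 0.60, and Sult5a1 had -4.33 and -0.74. Transgenic and old libraries overlapped for all 10 members, where 0.672% of all genes had every transgenic library above every old one and 1.14% had every one below. In males alone, all 5 transgenic libraries lay above all 3 old ones for Sult2a1, Sult2a2 and Sult2a5, a relation found for 2.09% of all genes, and no member lay below, as 2.82% of genes did.

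**Figure D3:**
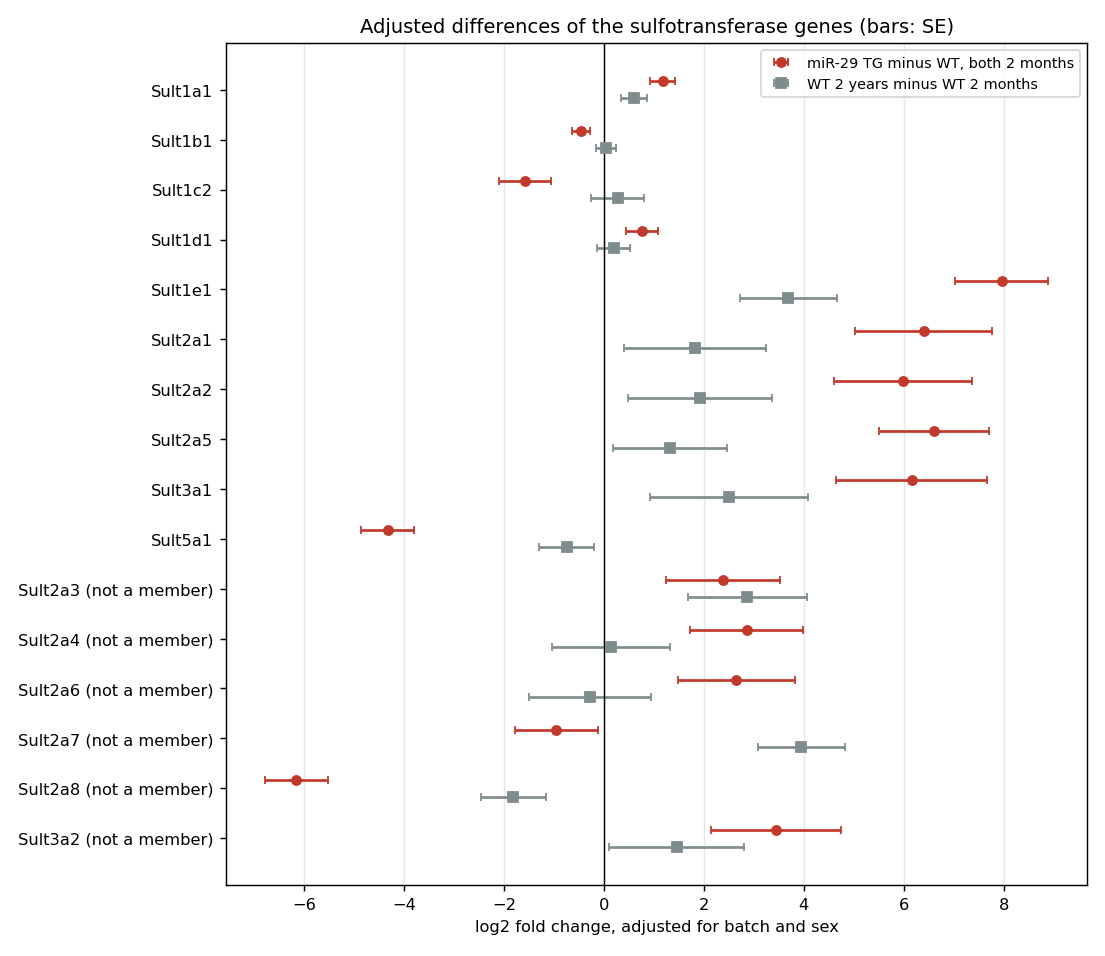
Circles give the log2 fold change of transgenic against young wild-type livers and squares that of old against young wild-type livers (horizontal axis, adjusted for batch and sex, bars are SE), for the 10 members and the 6 other sulfotransferases tested. Sult1e1 lies at 7.96 and 3.69, Sult5a1 at -4.33 and -0.74, and the non-member Sult2a8 at -6.15 and -1.81.

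Of 42 genes listed for the rest of the sulfation system and found in the table, 35 entered the fit. In transgenic against young wild-type livers 1 of these passed as higher and 4 as lower, where 6.71% of all genes passed, with a median of -0.04 on the log2 scale. Among the 11 other sulfotransferases, 6 entered the fit and 1 passed. This was Sult2a8, a mouse liver enzyme of bile acid sulfation in the same chromosome 7 cluster, which fell by 6.15 ± 0.62 on the log2 scale (SE, limma adjusted p = 3.85e-05, lower in 6 of 6 transgenic libraries). In batch B alone it was lower by a like amount and did not pass (log2 fold change -6.11, limma adjusted p = 0.0581). It averaged 407 ± 304 in transgenic (SD, n = 6), 8566 ± 6169 in old (SD, n = 5) and 22581 ± 7628 in young wild-type livers (SD, n = 6). Within 1 cluster, then, Sult2a1, Sult2a2 and Sult2a5 were higher and Sult2a8 was lower in transgenic males than in young wild-type males.

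The genes that make the sulfate donor did not pass. Papss1 and Papss2, the PAPS synthases, had log2 fold changes of -0.84 ± 0.41 and -0.34 ± 0.31 (SE, limma adjusted p = 0.250 and 0.584). Slc26a1, a sulfate transporter of hepatocytes, had -0.28 ± 0.31, and the 2 phosphatases that clear the spent donor, Bpnt1 and Impad1, had -0.24 ± 0.21 and 0.04 ± 0.19 (limma adjusted p = 0.671, 0.570 and 0.926). Cth, which makes cysteine, rose by 1.30 ± 0.27 (limma adjusted p = 0.00664), and Ethe1, listed for sulfate formation from cysteine, fell by 1.10 ± 0.31 (0.0446). Of the sulfatases, Arsa fell by 1.18 ± 0.26 and Arsg by 1.02 ± 0.28 (limma adjusted p = 0.0114 and 0.0385). The call of Arsg was lost in 13 and that of Ethe1 in 19 of 32 alternative settings. In old against young livers none of the 35 passed, and in the female against male comparison 3 did, all sulfotransferases.

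**Figure D4:**
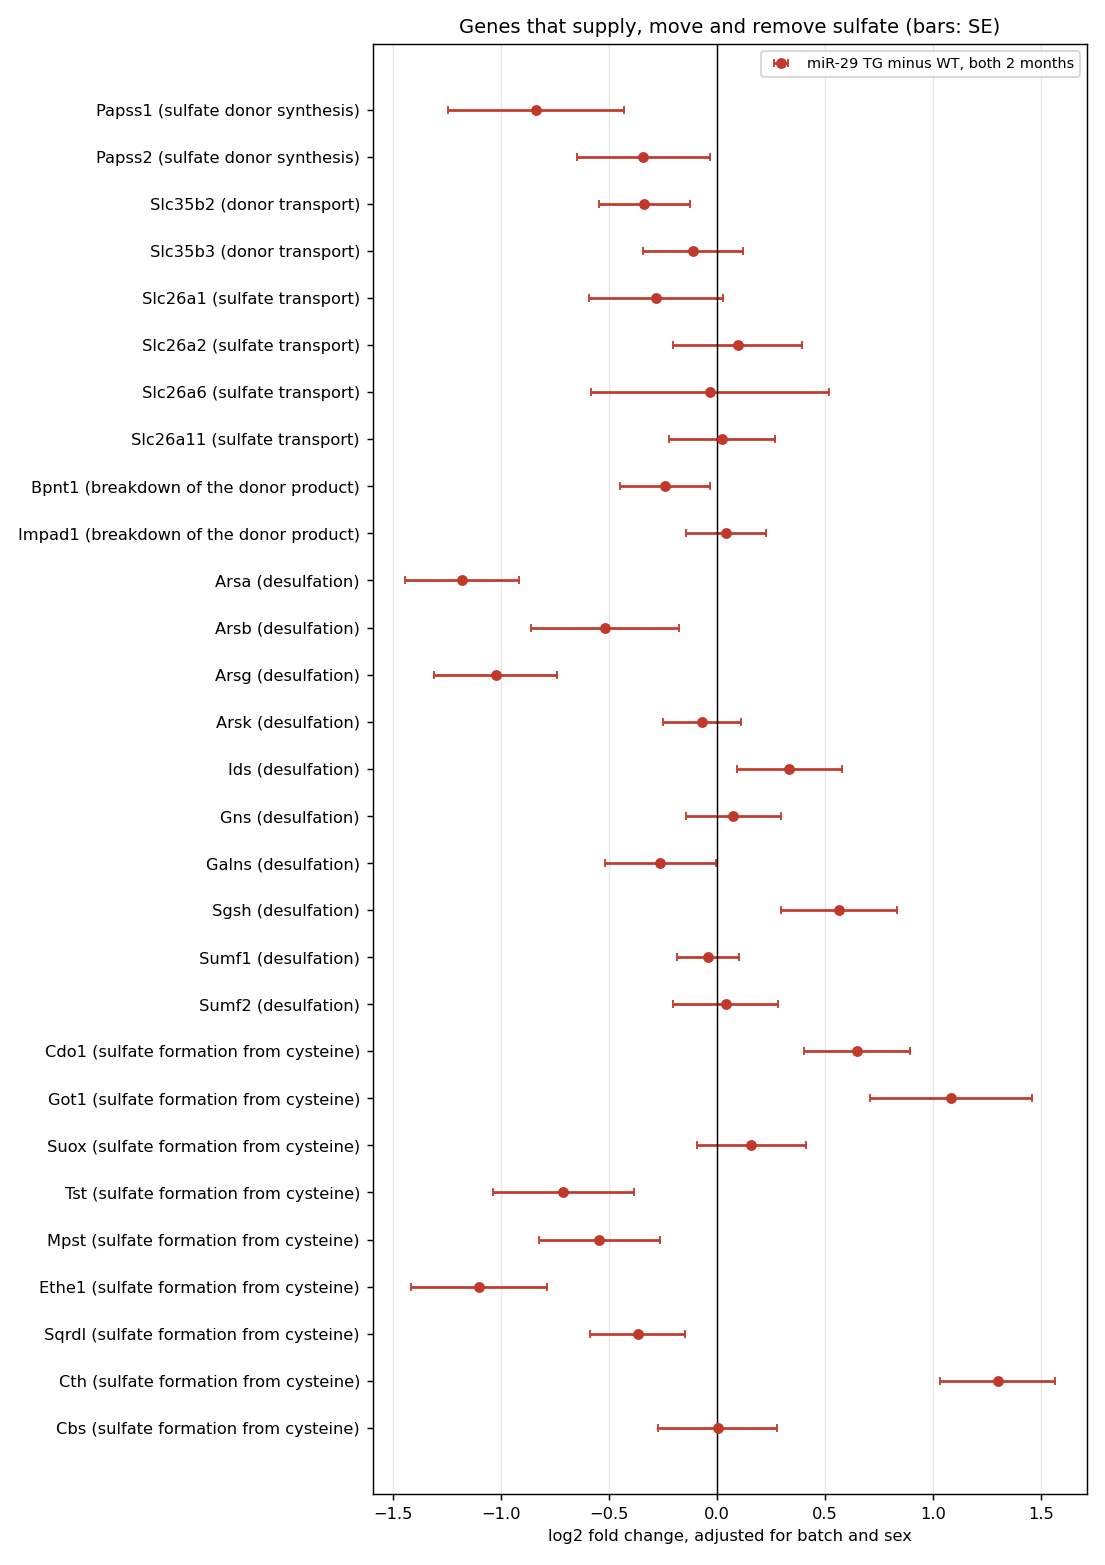
Points give the log2 fold change of transgenic against young wild-type livers (horizontal axis, bars are SE) for the 29 tested genes that supply, move, spend or remove sulfate, with their role in brackets. Most lie within 1 unit of 0, with Cth at 1.30 as the highest and Arsa at -1.18 as the lowest.

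Among 21 regulators known to act on sulfotransferase or sex-dependent liver genes, 4 passed in transgenic against young wild-type livers, 1 as higher and 3 as lower. Over all genes tested 2.89% passed as higher and 3.83% as lower. Cux2, a homeodomain factor of the female mouse liver, rose by 4.83 ± 0.88 (SE, limma adjusted p = 0.00272). The growth hormone receptor Ghr fell by 1.55 ± 0.28 and Ppara, a lipid-sensing receptor, by 1.44 ± 0.37 (limma adjusted p = 0.00249 and 0.0284). The call of Ppara was lost in 11 of 32 alternative settings.

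Enzymes that make or consume the steroids which SULT1E1 and SULT2A sulfate changed in many cases. Of 14 tested, 2 rose and 9 fell in transgenic against young wild-type livers, where 2.89% of all genes passed as higher and 3.83% as lower. This list was chosen with earlier results of these data known. Cyp2a4, a female-predominant steroid hydroxylase of mouse liver, rose by 5.29 ± 1.01, and Cyp17a1, which makes dehydroepiandrosterone in steroid tissues, rose by 3.47 ± 0.68 (SE, limma adjusted p = 0.00406 and 0.00489). The male-predominant Hsd3b5 fell by 7.42 ± 1.10 and Cyp7b1, an oxysterol and steroid hydroxylase, by 4.73 ± 0.48 (limma adjusted p = 0.000613 and 3.85e-05). Srd5a1, the steroid reductase, fell by 2.97 ± 0.38 (limma adjusted p = 0.000252), and Akr1c6, Hsd3b2, Hsd17b2, Hsd3b3, Hsd17b12 and Hsd17b4 fell by 0.58 to 2.40. The call of Hsd17b4 was lost in 19 and that of Hsd17b12 in 16 of 32 alternative settings. In the wild-type sex comparison Cyp2a4 (8.68 ± 0.74), Cyp17a1 (3.65 ± 0.60) and Hsd17b6 (1.79 ± 0.29) were higher in females (limma adjusted p = 0.000277, 0.0194 and 0.0187). The sex call of Cyp17a1 was lost in 7 and that of Hsd17b6 in 9 of 23 alternative settings. In old against young livers none of the 14 passed.

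The genes outside the family whose profile over the 17 libraries lay nearest to a member were taken by the smallest root mean square difference of centred log2 values. For Sult2a1 they were the female-predominant cytochromes Cyp2b9 (1.65), Cyp2a4 (1.77) and Cyp2b13 (1.98). For Sult3a1 they were Slc22a26 (1.92) and Cyp2b9 (2.12), and for Sult1e1 they were Myom3 (1.81), Bmper (1.94) and Plppr1 (1.98). Sult5a1 had Ces2c (1.08), Ces3b (1.09) and 1700080G11Rik (1.16) nearest, and Sult1d1 had Pdgfra (0.37), Akap8 (0.37) and Zfp280d (0.38). Between members, Sult1a1 and Sult1d1 lay nearest (0.59) and then Sult2a1 and Sult2a2 (0.90), while the nearest member to Sult1e1, Sult1a1, was 3.22 away. These distances describe the 17 libraries, and members with small changes have small distances to many genes.

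The liver label was checked on cell type markers. All 12 hepatocyte markers were detected in every group, summing to 2402040 to 7079460 normalized counts per library in transgenic and 3648280 to 5242970 in young wild-type livers, and 1 of the 12 passed the test, Serpina1c, as lower. Kidney markers, from another organ rich in sulfotransferases, summed to 0 to 8 per library in transgenic and 6 to 84 in young livers. Intestine markers were not near absent, with sums of 161 to 3535 in transgenic, 685 to 4721 in old and 2103 to 7370 in young livers. Of the 2 intestine markers tested, 0 passed in transgenic against young wild-type livers. Neutrophil markers summed to 548 to 48721 in transgenic, 143 to 2383 in old and 61 to 537 in young livers, and 11 of 12 passed as higher in transgenic livers. Erythroid markers summed to 22193 to 1584340 in transgenic and 10323 to 160743 in young livers, and 4 of 6 tested passed as higher. The rest went the other way without passing, Hba-a1 at -2.09 and Alas2 at -1.09 on the log2 scale. Over all marker lists 18 of 76 tested genes passed as higher and 4 as lower, where 2.89% and 3.83% of all genes did. Hepatocyte and erythroid sums overlapped between transgenic and young livers, while every transgenic neutrophil sum lay above every young one. The part of these cell types in the members' differences between genotypes was not tested.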

How the data were processed

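Polyadenylated liver RNA was sequenced from 17 libraries. STAR 2.5.3a, Salmon 0.6.0, DESeq2 and the mm10 build are named in the submitters' processing notes. The sources used here do not give their roles, the annotation or the use of strand in counting. The values analysed are a normalized signal per gene, which the authors deposited as normalized counts for 48440 genes. They sum to 28077001 to 44543936 per library. Whole reads could not be recovered, since 51.2% to 68.5% of low values lay within 0.1 of a whole step, so depth is unknown and no counting interval is given.

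The authors also deposited tables with log2 fold changes, test statistics (a score) and p-values for transgenic and for old against young wild-type livers. These were used as an alternative and are named where used.

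Genes with a mean of at least 10 over the 17 libraries (14588) were tested on log2(value + 1) with limma 3.58.1 in R 4.3.3, with a mean-variance trend. Fold changes on this scale understate those of low genes. The fit held group, batch and sex over all 17 libraries, and p-values were adjusted by the Benjamini-Hochberg method over all genes tested (threshold 0.05). Female was set against male in the 11 wild-type libraries with age and batch in the fit, and interactions were fitted in the 12 libraries aged 2 months or the 11 of wild type. The script was tested on simulated data. All 10 members passed the filter on low values, which was taken over all 17 libraries. Sult2a5, Sult2a3, Sult2a4 and Sult3a2 averaged at most 8.25 per kb of exon in wild-type males of either age. These genes thus passed it through female and transgenic libraries.

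The members and the gene lists were chosen with earlier results of these data known. The text names all members, the listed genes past the test, 5 sulfate donor and transport genes, and the 3 nearest profiles of 5 members. Marker lists are given as counts, and Serpina1c, Hba-a1 and Alas2 were named after their values were seen. A few genes that this rule names are not reported here. Coordinates are from GENCODE M21 (GRCm38), and miRNA and promoter sequences from RefSeq (GRCm38.p6), which held 8 of the 10 members. Python 3.11.15 with numpy 2.4.6, pandas 2.3.3 and Biopython 1.88 served for sequences and summaries. No sample column of the table was left unused. Alternatives covered the pseudocount, the filter, scaling, the variance model, covariates, a replicate block, batches or males alone and each library left out.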

Additional observations from a re-analysis of the deposited data

Results flagged for a closer look

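Within groups of libraries, 5 of 30 sets of values of a member in a group had a library far from the others, where chance gives about 1 in 20 for like libraries. The sexes are pooled in these sets, so that rate does not hold for members that differ between the sexes. Sult2a2 was higher in female than in male wild-type livers. For Sult3a1 every wild-type female lay above every wild-type male. Sult1e1 stood at 2821 in the old wild-type male 4, above the other 4 old libraries. Sult2a2 was at 45420 in the old wild-type female 2. Sult3a1 was at 20650 in the transgenic male 2 and at 2800 in the old wild-type female 1. Sult5a1 was at 75.61 in the transgenic male 1, above the other 5 transgenic libraries.

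An interaction term of transgene and sex, in the libraries aged 2 months, passed the threshold for 3 members. The effect in females minus that in males was -9.162 on the log2 scale for Sult2a1, -9.843 for Sult2a2 and -8.279 for Sult2a5. It rests on 1 transgenic female and on libraries by which the members were chosen, so it does not establish a difference between the sexes, and no cause was tested.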

How the results depend on the processing

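The direction of every member in transgenic against young wild-type livers was the same in all 32 alternatives, and depth is unknown, so counting error is not given. In that comparison 979 genes and 7 members passed the threshold. The counts were 495 genes and 2 members in batch A alone, 421 and 2 with group alone, 263 and 4 in batch B alone, and 2211 genes and 9 members in the authors' deposited table, which has its own test. Leaving out 1 library gave 653 to 1311 genes and 6 to 8 members. Of 20 called genes outside the list, 14 lost their call in batch B alone, 9 in batch A alone and 8 with group alone, and none reversed. Genes that had not passed changed sign in a few settings. Impad1 was at -0.0304 in batch A alone, at -0.0132 with group alone and between -0.0505 and 0.126 with 1 library left out. Papss1 was at 0.227, Papss2 at 0.0453 and Slc26a1 at 0.136 in batch B alone, and Papss2 at 0.0104 in males alone.

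For old against young livers, 21 genes passed, with 9 at a mean of at least 50, 1 in batch A alone, 5 with group alone, 0 in batch B alone, 41 in males alone, 10 with the 2 groups alone and 280 in the authors' deposited table. With 1 library left out the count was 9 to 37 genes and 0 to 1 members, and the member was Sult1e1, without WT_2year 5. The authors' deposited table called 1 member. Rescaling by the upper quartile moved the median of all genes to 0.149 and the share of higher genes among those called to 78.9%, against 66.7%.

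For female against male wild type, 85 genes and 3 members passed. No filter gave 44 genes and 1 member, and a fit of all 17 libraries 38 genes. With 1 library left out the counts were 46 to 139 genes and 3 to 5 members, the highest of both without WT_2year 4. Sult2a1 and Sult2a2 also lost their calls in young wild type of batch A alone, and Sult2a2 in all 17 libraries. The interaction of transgene and sex, whose alternatives were chosen after seeing the data, called 1 member with no filter and 2 or 3 otherwise.

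Replicate numbers are shared by groups but gave no steady pairing of libraries. Correlations between same-numbered libraries were taken on what was left after group, batch and sex were fitted. They ran from -0.32 to 0.35 for transgenic and young wild type. For old and young wild type they ran from -0.15 to 0.38, with 3 of the 5 pairs above 0.1. With the number as a replicate block, 796 genes and 7 members passed for the transgene, 11 genes and 0 members for age and 31 genes and 1 member for sex. The cause of these differences was not tested.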

Other observations

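Sult2a4 and Sult2a6, which are no members, were in transgenic livers found in batch A and hardly in batch B. Sult2a4 was at 246.6, 173.5 and 401.4 normalized counts in the 3 transgenic libraries of batch A and at 0.5716, 0 and 0 in the 3 of batch B. Sult2a6 was at 103.0, 102.4 and 213.9 in batch A and at 0, 0 and 2.731 in batch B. The 3 of batch B are male and batch A holds the transgenic female, which had the highest value of both genes.

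Sult2a7 was at 1341, 2906 and 1113 in the old wild-type libraries of batch A and at 69.53 and 148.0 in those of batch B, against 13.35 to 54.51 in young wild-type libraries. All 5 old libraries thus lay above all 6 young ones, and the log2 fold change of 3.95 ± 0.87 did not pass (SE, limma adjusted p = 0.106). The authors' deposited table gave it 4.30 with an adjusted p of 1.5e-09. These genes were singled out after their values were seen.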
